A study of Homo sapiens with 6 samples.

Results

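Integrins and laminins are the receptor and ligand chains through which epithelial and pluripotent cells hold on to a basement membrane. The 38 genes described here were chosen by symbol: every row of the deposited count table named as an integrin α chain, an integrin β chain or a laminin α, β or γ chain, without regard to its values. They are 26 integrin genes and 12 laminin genes out of 48183 gene names in the table, and each is listed under 1 Ensembl identifier.

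The series holds bulk RNA-seq of human embryonic stem cells carrying the EOS-GFP reporter, in 6 libraries (4 naive, 2 primed). Naive libraries comprised AICAR 1 and AICAR 2 (H1-EOS cells induced with AICAR, an activator of the kinase AMPK), CA-p38 (CA-p38 H1-EOS cells, in which doxycycline switches on a constitutively active p38 kinase from a piggyBac transgene) and VPA (H1-EOS cells induced with valproic acid, a histone deacetylase inhibitor). The primed libraries, without naive induction, were primed EOS (H1-EOS, parent of the AICAR and VPA cells) and primed CA-p38 (CA-p38 H1-EOS, parent of the CA-p38 cells). Per the methods of the study, the CA-p38 line had been given doxycycline and sorted for mCherry when it was made. The labels name the line H1, while the methods of the study describe H9-derived lines. Each induction was therefore represented by 1 or 2 libraries, and each parental line by 1 primed library.

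Culture differed between the states in ways that touch adhesion directly. Primed cells grew without feeders in StemFit AK02N on Matrigel, a mouse basement membrane extract. Per the labels, the naive cells grew after induction in PXGL medium (NDiff227 with PD0325901, XAV939, Go6983 and LIF, that is, with inhibitors of MEK, tankyrase and protein kinase C) on Matrigel with mitomycin C-treated mouse fibroblast feeders, and were sorted for CD75 and SUSD2. The study also describes a later transfer of CA-p38 cells to PXGL without feeders, and the labels give no feeder status for single libraries. Per its methods, naive cells seeded without feeders were at first given laminin 511, a laminin protein. State, medium, feeders and sorting cannot be told apart in this design. In bulk libraries, fewer cells expressing a gene and less RNA per cell cannot be told apart either. The AICAR libraries were collected a passage apart, and the length of induction differed between AICAR, CA-p38 and VPA. The labels do not say which libraries came from separate cultures, so p-values measure the spread between these libraries, which may be partly technical.

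Total counts ran from 46823699 to 54277064 per library, and 3 counts corresponded to 0.0552 to 0.0613 CPM, the count scaled to library size with TMM factors. Values listed per library below keep 1 order, AICAR 1, AICAR 2, CA-p38 and VPA for the naive libraries and primed EOS before primed CA-p38 for the others. The labelled states matched their markers. All 5 naive markers (KLF17, DPPA5, DPPA3, SUSD2, KLF4) were higher in naive libraries, with summed levels of 1738 to 2031 CPM against 2.94 to 4.95 CPM in primed libraries, although SUSD2 had been used to sort the naive cells. All 5 primed markers (SFRP2, DUSP6, ZIC2, CD24, THY1) were lower, with sums of 30.9 to 42.5 CPM against 2372 to 2904 CPM. POU5F1, the pluripotency factor shared by both states, averaged 1541 CPM (naive) and 1679 CPM (primed) and did not pass the test. NANOG, the other marker chosen as shared, was higher in naive libraries, at 230 against 91.4 CPM (log2 fold change 1.33, SE 0.11). Fibroblast markers moved in both directions, with 1 of 10 tested genes higher and 4 lower, where 26% and 27% of all genes tested were. Their median log2 fold change was 0.37, against 0.11 over all genes. TWIST1 was higher (19.1 against 0.305 CPM in primed), and PDGFRB (0.0977 against 16.8 CPM), COL1A2 (24.1 against 117 CPM) and COL1A1 (15.0 against 59.8 CPM) were lower. The sum of the list was 58.9, 75.2, 97.6 and 66.1 CPM in the naive libraries, highest in CA-p38, and 218 and 198 CPM in the primed ones. Reads from mouse feeder cells were not separated in these counts, and their part in any value was not tested.

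A laminin is a secreted trimer of 1 α, 1 β and 1 γ chain, named by those chains, so laminin 511 is α5β1γ1. It polymerises into the basement membrane and is tied there to collagen IV by nidogen and perlecan. An integrin is a surface heterodimer of 1 α and 1 β chain that binds laminin, fibronectin, collagen or a cell-surface partner outside the cell and talin, kindlin and the actin cytoskeleton inside it. Human pluripotent stem cells are known to adhere to laminin 511 and 521 mainly through α6β1, and laminins containing α1 and α5 are the early embryonic ones.

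In the naive libraries the laminin genes changed composition while most of the integrin α chains tested fell. Of the 38 genes, 35 passed the filter on low counts, and 27 of these had an adjusted p below 0.05 in edgeR, 10 higher and 17 lower in naive cells, where 53.1% of all 26497 genes tested were called (26% higher, 27% lower). The levels of the naive and primed libraries did not overlap in 28 of the 35, against 64.9% of all genes tested. The median log2 fold change was −0.53 for the 35 genes and 0.11 for all genes. By class, 3 of 12 laminin genes were higher and 4 lower, 5 of 17 integrin α genes were higher and 11 lower, and 2 of 6 integrin β genes were higher and 2 lower. The 3 genes below the filter were ITGAD, ITGB6 and ITGB7, with at most 12 counts in any library.

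**Figure D1:**
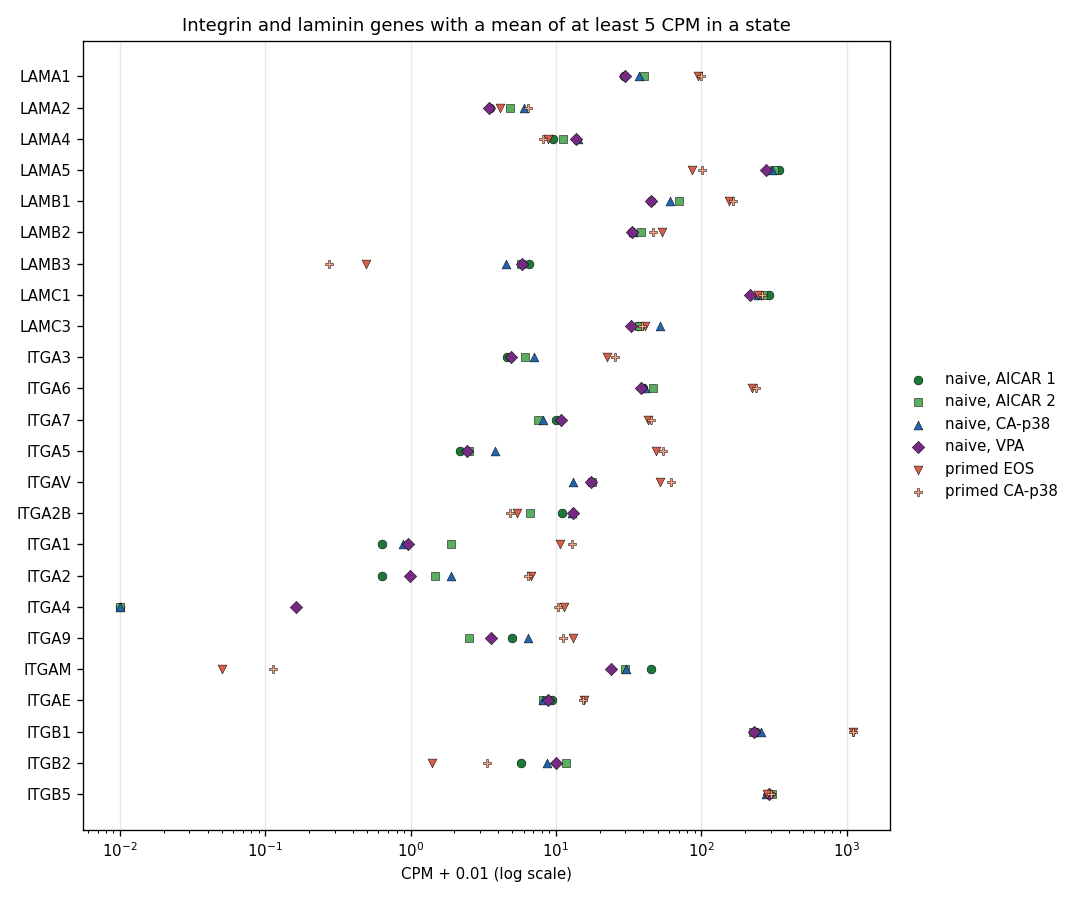
Level of 24 genes that averaged 5 CPM or more in a state (rows), as CPM plus 0.01 on a log axis, with 1 symbol per library (4 naive, 2 primed). ITGB1, ITGA6 and ITGA5 lie apart to the right in the primed libraries, LAMA5, LAMB3 and ITGAM to the right in the naive ones, and LAMC1 and ITGB5 show all 6 symbols together.

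**Figure D2:**
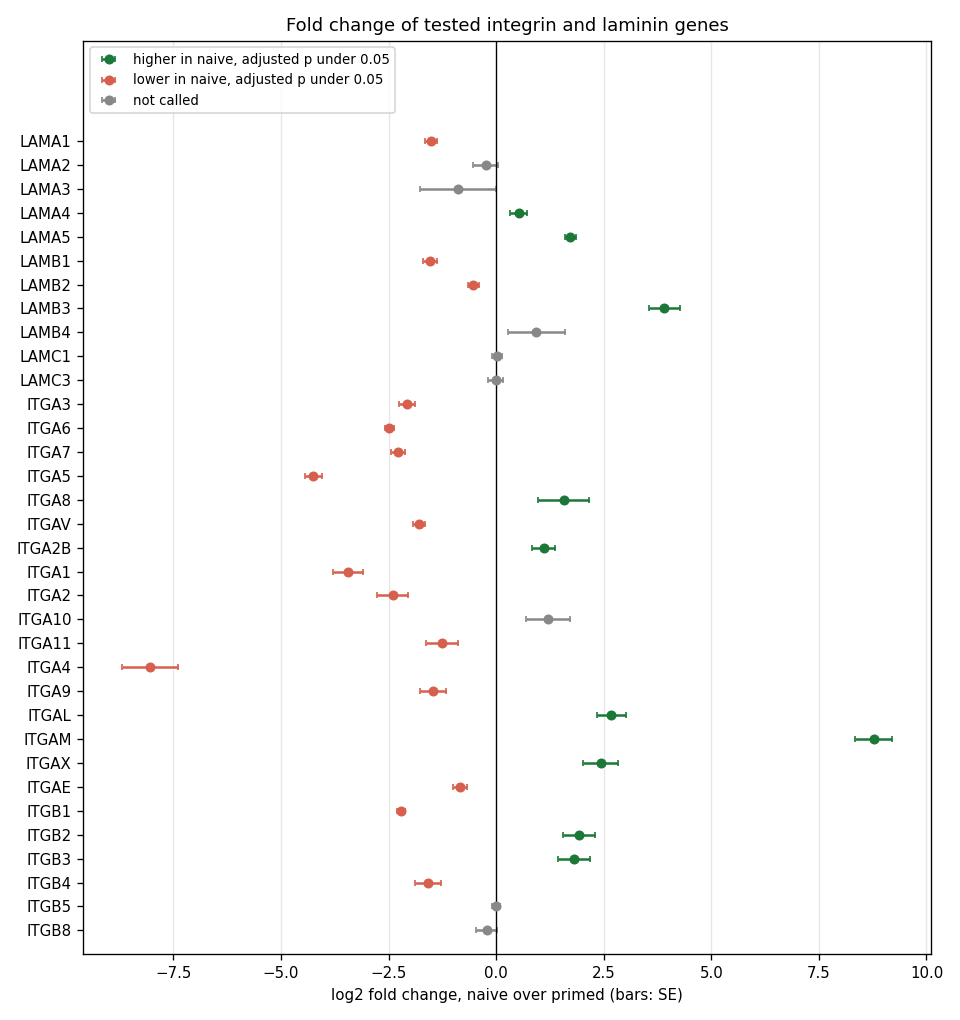
Fitted log2 fold change of naive over primed libraries with an SE back-calculated from the test (edgeR, 4 against 2 libraries) for 34 of the genes tested, coloured by call. The points run from −8.04 for ITGA4 to 8.78 for ITGAM.

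The 5 genes whose change was largest or set the composition of their class are shown with the 100 bases before their first listed start (RefSeq, GRCh38.p14), so that the values can be read beside the sequence. Capitals mark each CG, the dinucleotide that is methylated in human DNA and that naive cells are known to carry with little methylation. DNA methylation was not measured here. LAMA5 is at chr20:62367313-62367412 on the minus strand, LAMB3 at chr1:209652426-209652525 on the minus strand, ITGA5 at chr12:54419267-54419366 on the minus strand, ITGA4 at chr2:181457286-181457385 on the plus strand and ITGAM at chr16:31259875-31259974 on the plus strand.
LAMA5: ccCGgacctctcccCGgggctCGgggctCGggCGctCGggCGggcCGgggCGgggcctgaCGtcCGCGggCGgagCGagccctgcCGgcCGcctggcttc
LAMB3: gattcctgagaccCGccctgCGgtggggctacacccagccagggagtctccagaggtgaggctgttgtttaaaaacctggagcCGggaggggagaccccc
ITGA5: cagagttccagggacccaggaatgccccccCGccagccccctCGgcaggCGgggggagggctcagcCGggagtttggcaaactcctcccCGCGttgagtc
ITGA4: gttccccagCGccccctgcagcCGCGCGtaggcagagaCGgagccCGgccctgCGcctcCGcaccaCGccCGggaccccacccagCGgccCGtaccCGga
ITGAM: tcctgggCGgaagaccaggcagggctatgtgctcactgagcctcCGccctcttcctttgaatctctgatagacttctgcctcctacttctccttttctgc

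These stretches hold 16 CG in LAMA5, 13 in ITGA4, 6 in ITGA5, 3 in LAMB3 and 2 in ITGAM. Over the 250 bases before a start, ITGAM had 2 CG, LAMB3 8, ITGA5 12, ITGA4 25 and LAMA5 32, where the median of all 35116 listed starts was 11 (quartiles 3 and 23) and 93.9% held at least 1. The most strongly raised gene, ITGAM, had few CG before its start and the most strongly lowered, ITGA4, had many, while LAMA5 was both raised and rich in CG. A start was listed for 26 of the 38 genes. Taking the first listed start, the median was 6.5 CG (range 2 to 32) in the 6 genes called higher and 18 CG (range 6 to 32) in the 11 called lower, which is a description of these windows and was not tested. Further starts of a gene could differ from the first. ITGA6 had 8 CG before its first and 30 before its second start, ITGAV 18 and 1, ITGB1 32 and 4, and LAMB3 8, 10 and 3.

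Among laminin α chains, LAMA5 rose and LAMA1 fell. LAMA5 (ENSG00000130702, chr20:62307955-62367312, minus strand) encodes the α chain of laminins 511 and 521, and was at 343, 317, 305 and 281 CPM in the naive libraries against 86.9 and 101 CPM in the primed ones. Each naive library thus lay well above both primed ones, with a log2 fold change of 1.73 (SE 0.12, adjusted p = 7.47e-08). LAMA1 (ENSG00000101680, chr18:6941742-7117797, minus strand), the α chain of laminin 111, which is also the main laminin of Matrigel, went the other way. Its levels were 29.4, 40.5, 37.5 and 29.6 CPM against 95.6 and 100.2 CPM, a log2 fold change of −1.51 (SE 0.14, adjusted p = 1.19e-06).

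LAMA4, the α chain of vascular laminins, was at 9.57, 11.1, 14.3 and 13.7 CPM in the naive libraries against 8.83 and 8.12 CPM in the primed ones. The naive libraries were all higher, but AICAR 1 was close to primed EOS, and the log2 fold change of 0.52 (SE 0.21) was at the threshold, with an adjusted p of 0.0498 and between 0.0255 and 0.209 over the alternatives. LAMA2, the muscle laminin α chain, overlapped between states, at 3.53, 4.79, 6.00 and 3.44 CPM in naive libraries and 4.10 and 6.38 CPM in primed ones. LAMA3, which encodes the α chain of the epithelial laminin 332, was low everywhere. It had 56 counts (1.03 CPM) in AICAR 1 and 4 to 7 counts in the other naive libraries against 25 and 37 in primed ones, so its log2 fold change of −0.89 (SE 0.89) did not pass the test, and was −2.57 with an adjusted p of 0.00936 without AICAR 1.

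To compare chains with each other, CPM was divided by gene length in kilobases, since a longer gene yields more reads at the same number of molecules. On this per-kilobase scale LAMA5 made up 86.6% ± 1.93 (SD, n = 4) of the summed laminin α level in naive and 48.0% ± 1.85 (SD, n = 2) in primed libraries. LAMA1 made up 8.60% and 45.1%. The ratio of LAMA5 to LAMA1 was 10.3 ± 1.93 (SD, n = 4) in naive libraries, with values of 12.9, 8.70, 9.01 and 10.5, and 1.06 ± 0.08 (SD, n = 2) in primed ones, at 1.01 and 1.12. The 2 chains were thus near equal in primed cells and far apart in every naive library. With the length of the longest transcript in place of all exons the ratios were 8.42 and 0.87. With 4 and 2 libraries the smallest p of an exact permutation test is 0.0667, so shares and ratios are given here without a test.

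**Figure D3:**
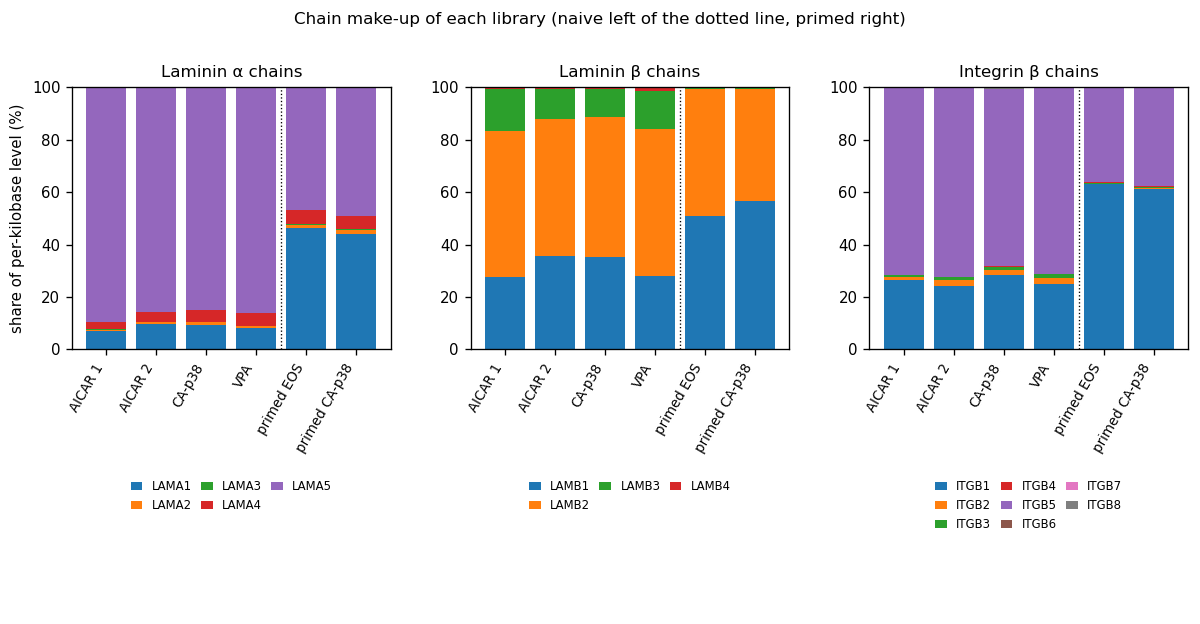
Share (%) of each gene in the summed per-kilobase level of its class, 1 bar per library, for laminin α and β chains and integrin β chains. LAMA5 takes 86.6% of the laminin α bar in the naive mean and 48.0% in the primed mean, and ITGB5 takes 70.4% and 36.7% of the integrin β bar.

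The laminin β chains also changed composition. LAMB1, the β chain of laminins 111, 411 and 511, was at 45.2, 70.5, 60.6 and 44.8 CPM in the naive libraries against 154 and 167 CPM in the primed ones, a log2 fold change of −1.54 (SE 0.16, adjusted p = 4.40e-06). LAMB2, the β chain of laminins 421 and 521, fell less. It was at 33.4, 38.2, 34.1 and 33.1 CPM in the same naive libraries against 53.8 and 46.3 CPM, a log2 fold change of −0.53 (SE 0.12, adjusted p = 0.00281). LAMB3 (ENSG00000196878, chr1:209614870-209652425, minus strand), known as the β chain of laminin 332, was the most strongly raised laminin gene. Its levels were 6.55, 5.70, 4.55 and 5.81 CPM in naive libraries against 0.485 and 0.266 CPM (24 and 13 counts) in primed ones, and its log2 fold change was 3.90 (SE 0.36, adjusted p = 1.27e-06). LAMB3 nevertheless stayed a minor β chain, at 13.2% of the summed β level per kilobase in naive and 0.50% in primed libraries. LAMB4 lay at 0.121 to 0.745 CPM in all libraries and overlapped between states.

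LAMC1, the γ chain of most laminins, did not differ beyond the spread between libraries. It was at 290, 267, 248 and 218 CPM in the naive libraries and at 244 and 264 CPM in the primed ones. Its log2 fold change was 0.01 (SE 0.12, adjusted p = 0.954), and its sign turned with the scaling (−0.04 with DESeq2 median-ratio factors). LAMC3 was likewise at 36.5, 37.3, 52.4 and 32.9 CPM in naive libraries and at 41.0 and 39.2 CPM in primed ones, with a log2 fold change of −0.01 (SE 0.17) that became 0.09 with library totals.

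A trimer needs all 3 of its chains, so the lowest per-kilobase level among them was taken for each trimer in each library, as a description of RNA and not of protein. For laminin 111 this was LAMA1 in all 6 libraries, at 2.16 ± 0.35 CPM per kb (SD, n = 4) in naive and 6.17 ± 0.21 CPM per kb (SD, n = 2) in primed libraries. For laminin 521 it was LAMB2 in the naive libraries, at 4.86, 5.57, 4.96 and 4.82 CPM per kb, and LAMA5 in primed EOS and LAMB2 in primed CA-p38, at 6.08 and 6.75 CPM per kb. For laminin 511 it was LAMB1 in naive libraries, at 2.97 ± 0.67 CPM per kb, and LAMA5 in primed ones, at 6.58 ± 0.70 CPM per kb. The chain at the lowest level in laminins 511 and 521 was thus a β chain in every naive library, although LAMA5 itself was over 3-fold higher there (mean ratio 3.31). Laminin 411 was set by LAMA4 at 1.01 and 0.707 CPM per kb.

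The size of these differences depends on the gene length used, which for LAMB1 was 18.6 kb for all exons and 6.74 kb for the longest transcript. With the longest transcript, the lowest chain of laminin 511 was 8.20 CPM per kb in naive and 8.23 CPM per kb in primed libraries, with the same lowest chains, and LAMB1 was above LAMB2 in the naive libraries (mean ratio 1.34, against 0.584 with all exons). Laminin 521 stayed lower in naive libraries with both lengths (6.09 against 7.87 CPM per kb with the longest transcript), and so did laminin 111 (3.30 against 9.43 CPM per kb).

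**Figure D4:**
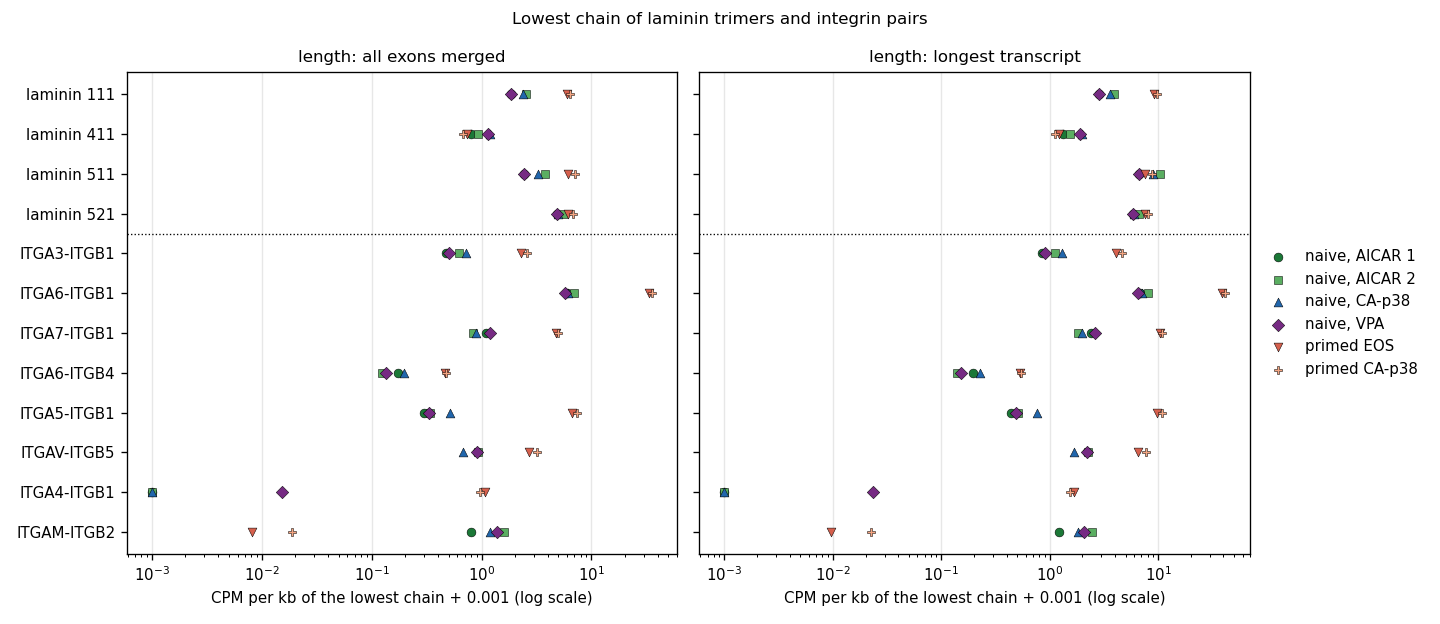
Per-kilobase level of the lowest chain, plus 0.001, on a log axis for 4 laminin trimers (above the dotted line) and 8 integrin pairs (below it), with 1 symbol per library. The left panel divides by all merged exons and the right panel by the longest transcript. ITGA6-ITGB1 is near 6.21 CPM per kb in naive and 34.8 CPM per kb in primed libraries on the left, while laminin 521 moves little in either panel.

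All 3 laminin-binding integrin α chains fell. ITGA6 (ENSG00000091409, chr2:172427354-172506459, plus strand), the α6 chain that pairs with β1 or β4, was at 39.7, 46.8, 41.2 and 38.2 CPM in the naive libraries against 225 and 239 CPM in the primed ones. Its log2 fold change was −2.49 (SE 0.11, adjusted p = 1.05e-09), and the naive libraries lay close together far below both primed ones. ITGA3, the α3 chain of a receptor for laminins with α3 and α5, was at 4.62, 6.14, 7.07 and 4.91 CPM against 22.3 and 25.5 CPM, a log2 fold change of −2.07 (SE 0.19, adjusted p = 1.44e-06). ITGA7, the α7 chain of the muscle laminin receptor, was at 9.98, 7.51, 8.14 and 10.9 CPM against 43.3 and 45.3 CPM, a log2 fold change of −2.28 (SE 0.16, adjusted p = 1.11e-07). In all 3 genes every naive library lay below both primed ones, and ITGA6 remained the highest of them per kilobase in both states.

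ITGB1 (ENSG00000150093, chr10:32887273-33005792, minus strand), the β chain shared by the largest group of integrins, fell with its partners. It was at 238, 228, 259 and 230 CPM in the naive libraries and at 1110 and 1106 CPM in the primed ones. The log2 fold change was −2.21 (SE 0.09, adjusted p = 5.25e-10), a mean 4.64-fold higher level in primed cells. Of the 12 α chains that pair with β1, 10 were lower, 1 (ITGA8) was higher and 1 (ITGA10) was not called, with a median log2 fold change of −2.17. ITGB1 kept a level above the summed per-kilobase level of these partners in both states, at a ratio of 1.63 ± 0.11 in naive and 1.35 ± 0.07 in primed libraries. With the longest transcript these ratios were 3.01 and 2.54. ITGB4, the β4 chain that joins α6 in hemidesmosomes, was low at 0.826 to 1.33 CPM in naive libraries and 3.13 and 3.19 CPM in primed ones, and fell by 1.58 on the log2 scale (adjusted p = 0.000869).

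Set beside the laminin chains, the laminin-binding integrin α chains fell while the summed laminin α level rose. The laminin α chains together were at 25.2 ± 1.73 CPM per kb (SD, n = 4) in naive and 13.7 ± 0.94 CPM per kb (SD, n = 2) in primed libraries, while the summed β level was 9.31 and 16.0 CPM per kb and the summed γ level 36.0 and 36.7 CPM per kb. The ratio of summed laminin α chains to ITGA3, ITGA6 and ITGA7 together was 3.57, 3.06, 3.22 and 3.07 in the naive libraries against 0.320 and 0.331 in the primed ones. The laminin α chains thus exceeded these integrin α chains in every naive library and stood below them in both primed libraries, with either gene length (3.15 and 0.353 with the longest transcript). At the level of whole complexes the contrast was smaller. The lowest chain of ITGA6-ITGB1 stayed above that of laminins 521 and 111 in every naive library, with either length. The lowest chain of ITGA6-ITGB1 over that of laminin 521 was 1.23 ± 0.03 in naive and 5.43 ± 0.16 in primed libraries, with LAMB2 the lowest chain of the trimer and ITGA6 that of the receptor in the naive libraries. With the longest transcript the same ratio was 1.17 and 5.08. Over laminin 511 the ratio was 2.14 in naive and 5.31 in primed libraries with all exons, and 0.891 and 4.87 with the longest transcript, so which of the 2 was higher in naive libraries depended on the length used. Over laminin 111 it was 2.90 and 5.63 with all exons, and 2.18 and 4.23 with the longest transcript.

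Integrin chains that bind the RGD motif of fibronectin and vitronectin moved in both directions. ITGA5, the α5 chain of the fibronectin receptor, was at 2.19, 2.52, 3.80 and 2.45 CPM in the naive libraries against 49.1 and 54.8 CPM in the primed ones, a log2 fold change of −4.25 (SE 0.20, adjusted p = 2.23e-09). The naive libraries all stayed under 4 CPM, and the mean level was 19.0-fold higher in primed ones. ITGAV, the αV chain of the vitronectin receptors, was at 17.4, 17.8, 13.2 and 17.4 CPM against 52.1 and 61.7 CPM, a log2 fold change of −1.79 (SE 0.15, adjusted p = 3.80e-07). ITGB5, which pairs only with αV, did not follow it. It was at 286, 305, 278 and 292 CPM in the naive libraries and at 283 and 304 CPM in the primed ones, with a log2 fold change of −0.01 (SE 0.09, adjusted p = 0.915) that turned to 0.09 with library totals.

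As a result, ITGB5 exceeded ITGAV by a per-kilobase ratio of 53.1 ± 6.39 (SD, n = 4) in naive and 15.3 ± 1.06 (SD, n = 2) in primed libraries (32.0 and 9.26 with the longest transcript). ITGB5 made up 70.4% of the summed integrin β level per kilobase in naive and 36.7% in primed libraries, and ITGB1 25.9% and 62.2%, so the order of these β chains was opposite in the states. It stayed opposite with the longest transcript (58.8% and 24.9% for ITGB5, 38.3% and 74.4% for ITGB1). ITGB8, another partner of αV, was at 3.46 to 4.22 CPM in naive libraries, against 4.95 and 4.05 CPM, and was not called.

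The platelet integrin chains rose. ITGA2B, the αIIb chain of the platelet fibrinogen receptor, was at 10.95, 6.66, 12.9 and 13.1 CPM in the naive libraries against 5.36 and 4.78 CPM in the primed ones, with AICAR 2 nearest to the primed values. Its log2 fold change was 1.10 (SE 0.27, adjusted p = 0.00424). Its partner ITGB3 was at 2.50, 4.55, 5.60 and 6.13 CPM against 1.23 and 1.43 CPM, a log2 fold change of 1.82 (SE 0.38, adjusted p = 0.00125). An overlapping gene on the same strand covers 33.2% of the exon bases of ITGB3, so reads of the 2 could not be told apart in that stretch. ITGA8, a β1 partner that binds RGD ligands in the kidney, was at 0.420 to 1.05 CPM against 0.182 and 0.286 CPM. Its log2 fold change of 1.57 (SE 0.59) had an adjusted p of 0.0400, which lay above 0.05 in 6 alternatives and reached 0.209.

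Collagen-binding chains were low in naive libraries. ITGA1, the α1 chain of a collagen IV receptor, was at 0.626, 1.89, 0.871 and 0.955 CPM in the naive libraries against 10.6 and 12.8 CPM in the primed ones, a log2 fold change of −3.44 (SE 0.35, adjusted p = 2.92e-06). ITGA2, the α2 chain of a fibrillar collagen receptor, was at 0.626, 1.45, 1.90 and 0.974 CPM against 6.73 and 6.38 CPM, a log2 fold change of −2.41 (SE 0.36, adjusted p = 9.54e-05). Both were under 2 CPM in every naive library. ITGA11 was at 0.718 to 1.11 CPM against 1.60 and 3.03 CPM (adjusted p = 0.0108, and 0.260 without primed CA-p38), and ITGA10 at 0.515 to 1.01 CPM against 0.303 and 0.348 CPM (adjusted p = 0.0664, and 0.0261 when only genes with at least 10 counts in every library were kept).

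ITGA4 (ENSG00000115232, chr2:181457202-181538940, plus strand), the α4 chain that binds VCAM1 and fibronectin, was the most strongly lowered member. It was listed at 0 in AICAR 1, AICAR 2 and CA-p38, which allows up to 0.0604 CPM, and had 8 counts (0.153 CPM) in VPA. The primed libraries had 11.3 and 10.3 CPM (561 and 505 counts). The log2 fold change was −8.04 (SE 0.65, adjusted p = 3.74e-07), and the pooled counts gave a 280-fold higher level in primed libraries (95% Clopper-Pearson interval 142 to 651, counting error only). All 8 naive counts came from VPA, and without VPA the log2 fold change was −12.1, a fitted value against libraries at 0 and no measure of size. CERKL on the opposite strand shares 26.4% of its exon bases and had 2 to 36 counts per library. The related ITGA9 was at 4.97, 2.52, 6.37 and 3.57 CPM against 13.0 and 11.2 CPM, a log2 fold change of −1.48 (SE 0.30, adjusted p = 0.00107).

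The leukocyte integrins of the β2 family rose, ITGAM by far the most. ITGAM (ENSG00000169896, chr16:31259967-31332892, plus strand), the αM chain also known as CD11b of the complement receptor on myeloid cells, was at 44.9, 29.7, 30.3 and 24.1 CPM in the naive libraries. In primed EOS and primed CA-p38 it had 2 and 5 counts (0.0404 and 0.102 CPM), so all naive libraries exceeded both primed ones by over 2 orders of magnitude. The log2 fold change was 8.78 (SE 0.43, adjusted p = 3.21e-09), and the pooled counts gave a 456-fold higher level in naive libraries (95% Clopper-Pearson interval 221 to 1134, counting error only). The log2 fold change was 9.56 without primed CA-p38 and 8.25 without primed EOS. Per kilobase, ITGAM made up 28.5% ± 5.65 (SD, n = 4) of the summed integrin α level in naive libraries, next to 31.7% ± 3.88 for ITGA6, and the spread of the 2 overlapped. Its neighbour ITGAX (chr16:31355134-31382999, plus strand), the αX chain, was at 3.15, 2.11, 2.40 and 3.32 CPM against 0.344 and 0.675 CPM, a log2 fold change of 2.43 (SE 0.41, adjusted p = 0.000236). ITGAL, the αL chain of the lymphocyte receptor for ICAM1, was at 3.04, 3.56, 3.11 and 3.10 CPM against 0.586 and 0.409 CPM, a log2 fold change of 2.68 (SE 0.34, adjusted p = 2.40e-05). ITGAD, next to ITGAX, had 0 to 12 counts in every library.

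ITGB2, the β2 chain that all of these α chains need, rose too, but stayed below ITGAM. It was at 5.78, 11.7, 8.63 and 9.99 CPM in the naive libraries against 1.39 and 3.35 CPM in the primed ones, a log2 fold change of 1.93 (SE 0.37, adjusted p = 0.000788), which became 2.70 without primed CA-p38 and 1.41 without primed EOS. AICAR 1 had the highest ITGAM and the lowest ITGB2 of the naive libraries, and the per-kilobase ratio of ITGAM to ITGB2 was 9.98, 3.26, 4.50 and 3.09 in naive against 0.0372 and 0.0391 in primed libraries. The lower chain of the pair was thus ITGB2 in the naive and ITGAM in the primed libraries. ITGAE, the αE chain of intraepithelial lymphocytes that pairs with β7, fell slightly, from 15.5 and 15.4 CPM in primed to 9.37, 8.17, 8.08 and 8.83 CPM in naive libraries (log2 fold change −0.84, adjusted p = 0.000866), and its partner ITGB7 had at most 4 counts in any library.

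Markers of leukocytes, a list put together after the integrin values had been seen, summed to 18.3 to 24.8 CPM in naive libraries, above the 10.9 to 12.1 CPM of primed ones. Of its 10 genes 6 could be tested, of which 5 were higher and 1 lower, where 26% and 27% of all genes tested were. CORO1A, an actin regulator not limited to leukocytes, gave most of the sum, with means of 14.8 CPM (naive) and 9.85 CPM (primed). The pan-leukocyte gene PTPRC averaged 0.0716 CPM (naive) and 0.0915 CPM (primed) and the macrophage gene CSF1R 0.123 CPM and 0.0202 CPM, against 32.2 CPM of ITGAM in the naive libraries. CD14 and TYROBP, myeloid genes called higher, averaged 0.232 and 0.313 CPM in naive libraries and were listed at 0 in both primed ones, and 3 of the 10 genes had at most 3 counts in every naive library. Trophectoderm markers were higher in naive libraries, at 30.3 to 33.5 CPM in sum against 7.12 to 7.15 CPM. Of 9 tested, 6 were higher and none lower (TFAP2A 8.33 against 0.0609 CPM, KRT7 7.21 against 3.42 CPM). Hypoblast markers summed to 33.9 to 39.8 CPM and 10.3 to 34.4 CPM. Of 9 tested, 2 were higher (HNF4A and GATA4) and 4 lower (FOXA2 among them). The same shares of all genes, 26% higher and 27% lower, apply to these counts. The count of higher hypoblast genes was near that share. The part of these markers in the integrin and laminin values was not tested.

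Genes of the basement membrane around laminin mostly fell. Of 18 partner genes, 3 were higher and 11 lower, where 26% and 27% of all genes tested were, with a median log2 fold change of −1.55 against 0.11 over all genes. COL4A6 and COL4A5, chains of the collagen IV network, fell by 8.72 and fell by 5.27 on the log2 scale, from 52.0 to 0.122 CPM and from 48.6 to 1.26 CPM, and FREM2, which links epithelia to the membrane below, fell by 5.71. The genes that rose were NTN4 (log2 fold change 4.09), a netrin that binds laminin γ chains, CD151 (1.50), a tetraspanin that binds the laminin-binding integrins, and SDC4 (1.45), a syndecan of focal adhesions. CD151 averaged 131 CPM (naive) and 46.4 CPM (primed), opposite in direction to the integrin α chains it binds.

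Other integrin ligands fell as well, with 9 of 13 tested genes lower and 1 higher (27% and 26% of all genes) and a median log2 fold change of −2.12 (0.11 over all genes). TNC, tenascin C, fell by 6.07 on the log2 scale, MFGE8, an RGD protein that binds αV integrins, fell by 5.11, from 288 to 8.35 CPM, and FBN2, a fibrillin, fell by 4.57. ICAM1, the ligand of the αL and αM integrins, was the gene that rose, from 3.41 to 19.6 CPM (log2 fold change 2.52, SE 0.22, adjusted p = 5.97e-07). ICAM1 thus moved in the same direction as ITGAL, ITGAM and ITGB2. VCAM1, the ligand of α4, was too low to be tested.

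Inside the cell, 13 of 25 genes of the adhesion complex were lower and 7 higher (27% and 26% of all genes), so the count of higher genes was near the background, and the median log2 fold change was −0.81 (0.11 over all genes). VCL, vinculin, fell from 799 to 235 CPM (log2 fold change −1.77), BCAR1, a scaffold phosphorylated at adhesions, fell by 1.64 and ZYX, zyxin, fell by 1.42. TNS3, a tensin that binds β integrin tails, rose from 28.8 to 152 CPM (log2 fold change 2.41, SE 0.12, adjusted p = 5.11e-09). PLEC, the plectin that ties integrins to intermediate filaments, rose from 199 to 976 CPM (2.29, SE 0.13), and PARVB, a parvin that links integrins to actin, from 22.2 to 61.8 CPM (1.48, SE 0.24). These lists and their members were chosen with earlier results of these data known, so their counts describe the genes and carry no test of their own.

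Each naive library was finally set against the primed library of its own parental line, as log2 of CPM plus 0.5, with 1 primed library per line and so without a replicate check. Of the 25 genes that averaged 5 CPM or more in a state, 4 were at least 2-fold higher and 12 at least 2-fold lower in AICAR 1, 4 and 12 in AICAR 2, 5 and 11 in CA-p38 and 5 and 13 in VPA. Of all 13602 genes at that level, 15.9%, 15.8%, 16% and 16.3% were at least 2-fold higher and 20.7%, 21.3%, 21.5% and 21% at least 2-fold lower in the same libraries. LAMA5 was 1.97, 1.86, 1.59 and 1.69 higher on the log2 scale, and ITGB1 was at −2.22, −2.28, −2.09 and −2.27. These genes thus gave close values by every route of induction. Wider differences between naive libraries were seen in ITGA9, at −1.31, −2.16, −0.77 and −1.73, and ITGB2, at 1.73, 2.69, 1.24 and 2.47. AICAR 1 and AICAR 2, which share the treatment and the line, were the lowest and the highest of the 4 libraries in ITGA1 (−3.31 and −2.22) and differed less than CA-p38 and VPA did in ITGB2. With 1 library each for CA-p38 and VPA no difference between the routes was read from these values.

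**Figure D5:**
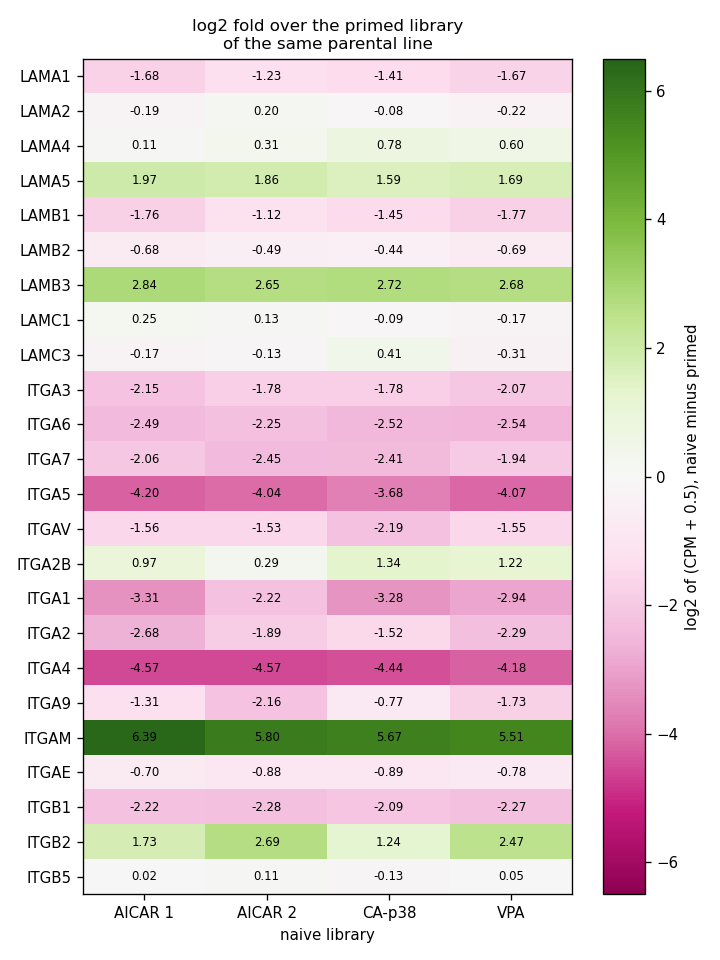
Log2 difference in CPM plus 0.5 between each naive library (columns) and the primed library of its parental line, for 24 genes that averaged 5 CPM or more in a state (rows), with green for higher and pink for lower in naive. The columns share their pattern, with ITGAM at 5.51 to 6.39 and ITGA4 at −4.57 to −4.18.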

How the data were processed

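Integrin and laminin genes were taken from a table of whole-number read counts per Ensembl gene, deposited by the authors without normalization. Per the methods of the study and the labels, polyadenylated RNA was made into libraries with the SMART-Seq Stranded kit, reads were trimmed (cutadapt 1.15, Trim Galore 0.4.4) and mapped with Bowtie2 to Ensembl GRCh38 cDNA and noncoding RNA, and alignments of mapping quality 1 or more were counted. Whether counting used the strand is not stated, so reads of a gene and an antisense or overlapping partner may not have been told apart. Exon bases shared with another gene exceeded 15% in ITGA4 (26.4%), ITGB3 (33.2%), ITGB6 (16.7%) and ITGB7 (42.3%). Another 23 columns of the table belong to other studies and were set aside, and 26 spike-in rows were left out of library totals.

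Counts of identifiers sharing a name were summed. The 4 naive libraries were tested against the 2 primed ones by the quasi-likelihood test of edgeR 4.0.16 (R 4.3.3, TMM scaling, filterByExpr by state, no covariate). P-values were adjusted by Benjamini-Hochberg over the 26497 genes tested, with a threshold of 0.05. TMM factors ran from 0.936 to 1.06. SE values were back-calculated from the same test, as the absolute log2 fold change over the square root of its F statistic. Lengths and positions were taken from GENCODE 44 (GRCh38), with all exons of a gene merged, or its longest transcript as the alternative. Counting intervals are 95% Clopper-Pearson intervals, and the floor is 3 counts per library. They cover counting error only. No 2 libraries agreed within sampling noise (chi-square of at least 19.8 per gene).

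Members with a mean of at least 5 CPM in a state are given with every value, the others by range (ITGB3, ITGAL and ITGAX also by value), and 1 laminin gene, which is included in the counts and sums, is not reported here. From each other list, up to 3 genes with the highest and 3 with the lowest log2 fold change past the threshold and with at least 5 CPM in a state are named. PTPRC, CSF1R, CORO1A, CD14 and TYROBP were named after their values were seen. The members and lists were chosen with earlier results of these data known.

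In counts simulated with the totals of these libraries, 200 of 21873 genes were changed and all genes shared 1 common dispersion (0.0563). There edgeR recovered 30.9% of genes changed 2-fold, 96.4% changed 4-fold and 100% changed 8-fold, with 5 false calls. A far larger share was called in the data (53.1%), so these figures give no recovery or error rate for the data. Alternatives were DESeq2 1.42.0 and its size factors, library totals, limma-voom (limma 3.58.1), a looser filter (any gene with 1 count) and a stricter one (10 counts per library throughout), a block for the parental line, the AICAR libraries summed, 1 identifier per name, and each library left out. Other steps ran in Python 3.11.15 (matplotlib 3.10.9, numpy 2.4.6, scipy 1.17.1, pandas 2.3.3).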

Additional observations from a re-analysis of the deposited data

Results flagged for a closer look

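Among the 4 naive libraries, 4 of 35 integrin and laminin genes tested had a single library far from the other naive ones (Dixon's criterion), where chance gives about 1 group in 20. LAMA3 was at 1.03 CPM in AICAR 1 and at 0.0764 to 0.141 CPM in the others. ITGAV was at 13.2 CPM in CA-p38, below 17.4 to 17.8 CPM in the others. ITGA4 was at 0.153 CPM in VPA and listed at 0 in the others, a pattern that meets the criterion whatever the single value. ITGAL was at 3.56 CPM in AICAR 2, above 3.04 to 3.11 CPM in the others.

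In 4 genes the naive library of the CA-p38 line and the 3 naive libraries of the H1-EOS line moved in opposite directions from their own primed library. None of these differences was tested, since each line has 1 primed library. LAMC3 was 0.41 on the log2 scale in CA-p38 against −0.31 to −0.13 in the others. LAMB4 was −0.086 against 0.48 to 1.003, ITGB8 was 0.052 against −0.46 to −0.26, and ITGB5 was −0.13 against 0.02 to 0.11.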

How the results depend on the processing

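Of the 35 genes tested, 25 kept their direction and their side of the threshold under all alternatives run. The count of called members ran from 23 to 28 with single libraries left out, where 27 were called with all libraries. With the parental line as replicate block LAMA4 lost its call (adjusted p = 0.0517), and no other call of a member changed. Genes near 0 changed sign without being called. LAMC1 was −0.041 with DESeq2 median-ratio factors and −0.041 with DESeq2, −0.015 with no filter beyond 1 count and −0.036 with the AICAR libraries summed. LAMC3 was 0.086 with library totals, 0.062 with limma-voom, 0.023 with at least 10 counts, 0.038 with the replicate block and 0.020 with AICAR summed. ITGB5 was 0.088 with library totals, 0.085 with limma-voom and 0.023 with at least 10 counts. With single libraries left out, LAMA2 ran from −0.54 to 0.12, LAMC1 from −0.071 to 0.073, LAMC3 from −0.19 to 0.054 and ITGB5 from −0.077 to 0.047. The cause of these changes was not tested. The median of all genes was 0.11 with TMM, 0.06 with DESeq2 median-ratio factors and 0.20 with library totals.

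With at least 10 counts in every library, fewer marker genes were tested, and 3 fibroblast and 2 trophectoderm genes were called. The longest transcript in place of all exons gave a LAMA5 share of 83.3% in naive and 42.3% in primed libraries, and lowest chains of 3.30 and 9.43 CPM per kb for laminin 111, 8.20 and 8.23 for 511, and 6.09 and 7.87 for 521.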
